A study of Rattus norvegicus with 5 samples.

Results

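The glycosyltransferase genes described here are the ganglioside sialyltransferase St8sia1, the branching enzyme Gcnt2 and 4 relatives, Gcnt1, St3gal5, St6gal1 and St3gal1. Members were taken by gene symbol from the platform annotation, and 5 of the 6 were measured, out of 7589 genes in the series. Gcnt1 was named by no probe set in the annotation used. St8sia1 and Gcnt2 were selected on the log2 difference between the strains in these same arrays, so their values are given as a description, without a test. Liver RNA came from 4-month-old male rats on standard chow, of PD, the polydactylous progenitor strain, and of PD.SHR4 (PD.SHR4a in the series text), a congenic strain that carries part of the spontaneously hypertensive rat's chromosome 4 on the PD background. The series title calls the congenic strains Cd36-deficient. RNA of 8 rats per strain was used and the labelled cDNA was pooled by strain, then hybridised to 3 PD and 2 PD.SHR4 Affymetrix Rat Exon 1.0 ST arrays. Differences are therefore between 2 pools, and the spread between arrays may be technical and need not contain the spread between rats.

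Sialyltransferases move sialic acid from its activated form, CMP-sialic acid, onto the ends of glycan chains in the Golgi. St3gal5 makes the ganglioside GM3 from lactosylceramide, and St8sia1 (GD3 synthase) adds a further sialic acid to GM3, the step that opens the b-series of gangliosides. St3gal1 caps mucin-type O-glycans, and St6gal1 caps N-glycans, among them those of plasma glycoproteins that hepatocytes secrete. Gcnt2 adds branches to straight chains of N-acetyllactosamine, turning the i into the I blood group antigen, while Gcnt1 branches O-glycans.

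The promoter windows of the genes that differ are shown first, since the deposited gene-level table gives each gene 1 value per array, which does not separate start sites. RefSeq (GRCr8, from the BN rat and not from PD or SHR) gives a single window for St8sia1 at chr4:177651504-177651803 and a pair for Gcnt2 at chr17:24073499-24073798 and chr17:24044598-24044897, all on the minus strand. Each runs from 250 bases before to 50 after the start, 5′ to 3′, and capitals mark the GC box, GGGCGG on either strand.
St8sia1: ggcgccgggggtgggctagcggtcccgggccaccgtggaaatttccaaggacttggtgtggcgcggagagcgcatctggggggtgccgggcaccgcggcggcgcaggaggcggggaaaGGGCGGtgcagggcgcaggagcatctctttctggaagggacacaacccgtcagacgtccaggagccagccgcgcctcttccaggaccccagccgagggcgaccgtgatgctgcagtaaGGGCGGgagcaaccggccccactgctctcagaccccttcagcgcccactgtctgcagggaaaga
Gcnt2, first window: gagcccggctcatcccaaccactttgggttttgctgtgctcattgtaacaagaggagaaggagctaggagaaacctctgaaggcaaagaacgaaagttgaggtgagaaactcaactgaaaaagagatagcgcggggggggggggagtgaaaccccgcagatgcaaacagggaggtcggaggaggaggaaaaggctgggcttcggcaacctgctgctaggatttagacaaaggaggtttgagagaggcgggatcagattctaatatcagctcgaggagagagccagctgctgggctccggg
Gcnt2, other window: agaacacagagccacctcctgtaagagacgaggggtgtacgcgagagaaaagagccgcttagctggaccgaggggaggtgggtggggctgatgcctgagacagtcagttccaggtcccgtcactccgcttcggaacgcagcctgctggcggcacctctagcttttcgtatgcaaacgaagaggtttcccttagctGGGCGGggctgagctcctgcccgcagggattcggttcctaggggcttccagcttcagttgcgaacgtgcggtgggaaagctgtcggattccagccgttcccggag
The St8sia1 window was 69.3% G or C, and those of Gcnt2 were 54.3% and 61.0%. GC boxes began 132 and 14 bases before the St8sia1 start and 55 bases before the other Gcnt2 start, and the first Gcnt2 window held none. A GC box is present in 33.1% of all 33469 windows. On both strands, none of these windows held an E-box (CACGTG, in 6.42% of all windows), a D-box (TTANGTAA, N being any base, 2.24%), a TATA box (TATAAA, 14.2%) or a CCAAT box (CCAAT, 37.5%).

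St8sia1 was lower in the congenic strain on every array. It measured 7.42, 8.43 and 8.25 on PD arrays 1 to 3 and 5.83 and 5.27 on the PD.SHR4 arrays, on the log2 scale of the deposited RMA values. The strains did not overlap, and the gap between the lowest PD and the highest PD.SHR4 array was 1.59, against a range of 1.01 within PD and 0.56 within PD.SHR4. The means were 8.03 ± 0.54 (SD, n = 3) and 5.55 ± 0.39 (SD, n = 2), a log2 difference of -2.48 ± 0.34 (SE of the limma fit), or 5.58-fold. That was the 15th lowest log2 difference among 8797 probe sets. PD array 1 lay below the other PD arrays, and 94.4% of probe sets had a smaller SD over the PD arrays than St8sia1 had. In whole liver, fewer cells of a type that express a gene and less of its RNA per cell cannot be told apart.

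Gcnt2 was higher in the congenic strain on every array. It measured 4.63, 5.05 and 5.14 on PD arrays 1 to 3 and 6.60 and 6.58 on the PD.SHR4 arrays. The gap between the strains, 1.44, exceeded the range of 0.50 within PD and 0.028 within PD.SHR4. The means were 4.94 ± 0.27 (SD, n = 3) and 6.59 ± 0.020 (SD, n = 2), a log2 difference of 1.65 ± 0.18 (SE), or 3.14-fold, the 19th highest of all probe sets. In PD the gene lay below the median of each array, which ran from 5.21 to 5.38 over the arrays, and in PD.SHR4 it lay above it.

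The 3 measured relatives differed less. St3gal5 measured 5.67, 5.72 and 5.74 in PD and 5.88 and 5.93 in PD.SHR4. Its PD.SHR4 arrays were both above the PD arrays, but the log2 difference was only 0.20 ± 0.11 (SE; 95% confidence interval -0.074 to 0.46; limma, adjusted p = 0.529). Its PD arrays lay close together, and only 3.69% of probe sets had a smaller SD there. St6gal1 was bright, at 10.8, 10.5 and 10.9 in PD and 10.4 and 10.4 in PD.SHR4. All of its PD arrays were above both PD.SHR4 arrays, by a gap of 0.043, and the log2 difference was -0.31 ± 0.16 (SE; 95% confidence interval -0.71 to 0.089; limma, adjusted p = 0.489). St3gal1 measured 8.99, 8.82 and 9.09 in PD and 8.91 and 8.69 in PD.SHR4, and these overlapped. Its log2 difference was -0.16 ± 0.14 (SE; 95% confidence interval -0.51 to 0.18; limma, adjusted p = 0.703). None of these intervals, which need not contain the spread between rats, reaches a 2-fold change in either direction.

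**Figure D1:**
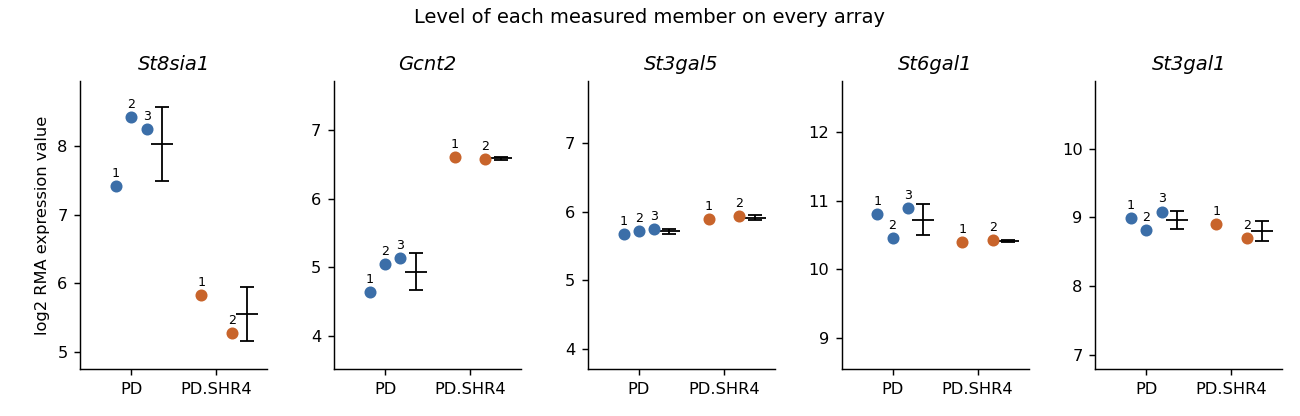
Log2 RMA expression value (vertical axes, each spanning the same number of log2 units) of the 5 measured members on the 3 PD (blue) and 2 PD.SHR4 (orange) arrays, numbered by replicate; the black bar beside each group is its mean and SD. The St8sia1 arrays of PD (7.42 to 8.43) lie above those of PD.SHR4, the Gcnt2 arrays of PD.SHR4 (6.58 and 6.60) lie above those of PD, and the other 3 genes shift by at most 0.31 in the mean.

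As a description of the selection, in the limma fit across all probe sets (adjusted p under 0.05) 1 of the 5 measured members was called lower, beside 0.659% of all 8797 probe sets, and 1 higher, beside 0.273%. The other 3 were not called, and the calls in either direction made up 0.932% of all probe sets. Since the pair was picked for this contrast, nothing is read from those calls or from the pair's lack of overlap. Among the other 3 members, St3gal5 and St6gal1 did not overlap between the strains and St3gal1 did, beside 31.9% of all probe sets without overlap. Both calls were lost when PD array 2, PD array 3 or either PD.SHR4 array was left out. The log2 difference of St8sia1 was then -2.28 without PD array 2, -2.37 without PD array 3, -2.76 without PD.SHR4 array 1 and -2.20 without PD.SHR4 array 2. That of Gcnt2 was 1.71, 1.75, 1.64 and 1.67 in the same order.

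Of 20 listed sialyltransferase genes 12 were measured. St8sia1, selected on this difference, is set aside here. Of the other 11, 0 were called in the limma fit, beside 0.932% of all probe sets. Of the 8 that are not members, 2 had an unadjusted limma p under 0.05, beside 13.8% of all probe sets. Log2 differences of these 11 lay between -0.37 and 0.37. With St8sia1 included the list's median was -0.063, and over the 8 that are not members it was 0.085, beside 2.0e-04 for all probe sets. The values nearest to the ends of that range, chosen after they were seen, were those of St3gal3 and St3gal6, which both cap galactose on glycoproteins or glycolipids. St3gal3 measured 7.85, 7.81 and 7.94 in PD and 8.24 and 8.24 in PD.SHR4 (log2 difference 0.37 ± 0.11 SE; limma, adjusted p = 0.227). St3gal6 measured 9.30, 9.62 and 9.35 in PD and 9.05 and 9.05 in PD.SHR4 (-0.37 ± 0.14 SE; limma, adjusted p = 0.325). In both genes the strains did not overlap, in opposite directions. St8sia3, a relative of St8sia1 best known from brain, had a log2 difference of 0.28 ± 0.12 (SE; limma, adjusted p = 0.386).

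Steps before and after St8sia1 in ganglioside synthesis did not pass the test, which 0.932% of all probe sets passed. Of 19 listed genes of glycosphingolipid synthesis other than sialyltransferases, 8 were measured and 0 were called in the limma fit, while 3 had an unadjusted p under 0.05, which 13.8% of all probe sets had. Their median log2 difference was 0.24, with 6 values above 0 and 2 below. Degs1, the desaturase that completes ceramide, measured 8.47, 8.42 and 8.35 in PD and 8.86 and 8.90 in PD.SHR4 (log2 difference 0.46 ± 0.11 SE; limma, adjusted p = 0.152). B4galnt1, which extends GM3 and GD3 to GM2 and GD2, measured 6.83, 7.18 and 6.99 in PD and 7.61 and 7.52 in PD.SHR4 (0.57 ± 0.15 SE; limma, adjusted p = 0.169). B3galt4, which acts after B4galnt1, measured 5.64, 5.67 and 5.45 in PD and 6.07 and 5.94 in PD.SHR4 (0.42 ± 0.13 SE; limma, adjusted p = 0.230). In each of these 3 genes, named for the smallest p-values of the list, both PD.SHR4 arrays were above all PD arrays. The strains did not overlap in 4 of the 8 measured genes, beside 31.9% of all probe sets. Among the 4 was Ugt8, named for its direction, which was lower in PD.SHR4 (log2 difference -0.094 ± 0.11 SE). Ugcg, which commits ceramide to this pathway, had a log2 difference of 0.043 ± 0.12 (SE), and its strains overlapped.

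Breakdown and supply genes did not pass either, where 0.932% of all probe sets were called and 13.8% had an unadjusted p under 0.05. Of 17 listed genes of ganglioside and glycosphingolipid breakdown, 11 were measured and 0 were called (limma; 2 at an unadjusted p under 0.05), with a median of 0.020. The GM2 activator Gm2a, a cofactor that lifts GM2 to its hydrolase, measured 11.3, 11.2 and 11.4 in PD and 10.8 and 10.8 in PD.SHR4 (log2 difference -0.45 ± 0.12 SE; limma, adjusted p = 0.183). The glucosylceramidase Gba2 had a log2 difference of 0.37 ± 0.15 (SE) and the protective protein Ctsa, which stabilises the sialidase Neu1, 0.19 ± 0.11 (SE). Of 10 listed genes of sialic acid supply and removal, 5 were measured and 0 called (limma; 2 at an unadjusted p under 0.05), with a median of 0.19. Cmas, which makes CMP-sialic acid, measured 8.08, 8.38 and 8.18 in PD and 8.57 and 8.72 in PD.SHR4 (0.43 ± 0.14 SE; limma, adjusted p = 0.250). Gne, the entry enzyme of sialic acid synthesis, measured 9.41, 9.63 and 9.54 in PD and 9.90 and 9.86 in PD.SHR4 (0.36 ± 0.12 SE; limma, adjusted p = 0.275). Renbp, which binds renin and acts on N-acetylglucosamine, had a log2 difference of -0.17 ± 0.11 (SE).

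**Figure D2:**
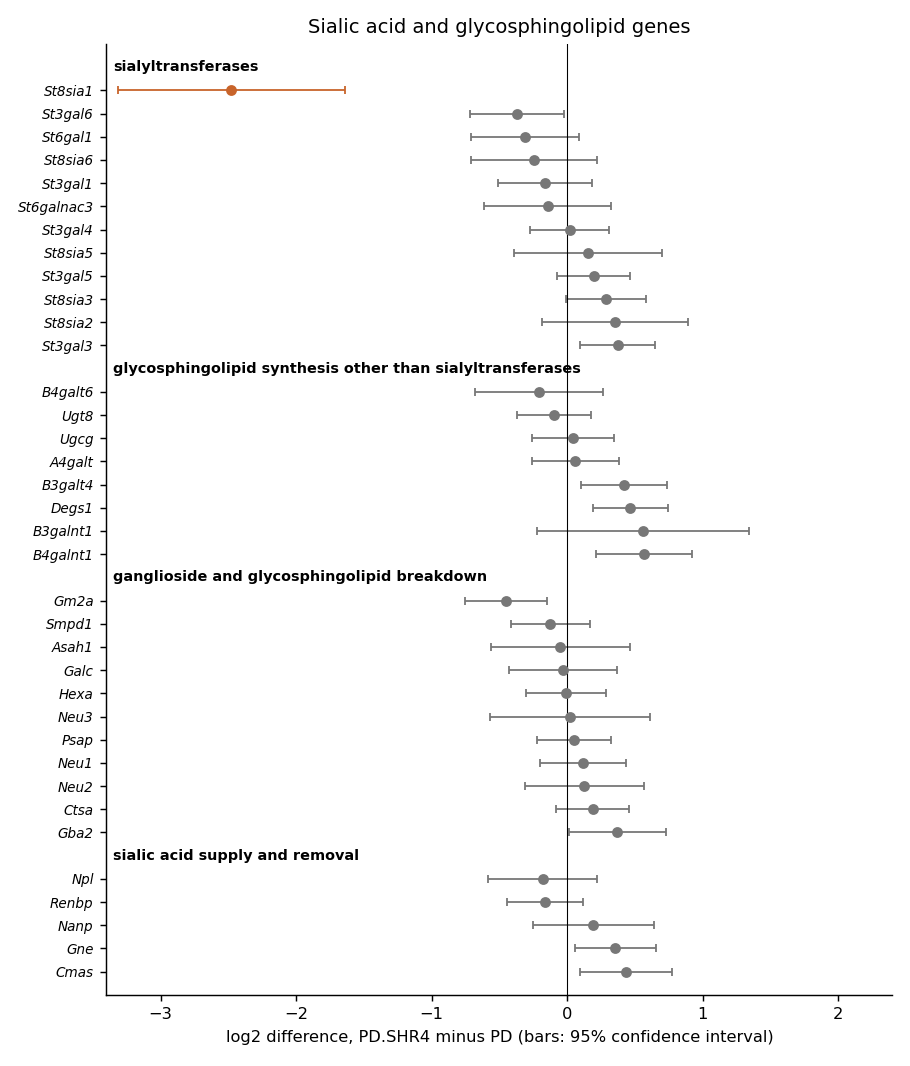
Log2 difference, PD.SHR4 minus PD (horizontal axis), with its 95% confidence interval from the limma fit, for each measured gene of the sialyltransferase, glycosphingolipid and sialic acid lists; orange marks genes past an adjusted p of 0.05. St8sia1, chosen for this difference, lies at -2.48, and the other measured genes lie between -0.45 and 0.57.

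Around Gcnt2, the list of Gcnt enzymes and of enzymes that build or extend N-acetyllactosamine held 17 genes, of which 5 were measured. Apart from Gcnt2, selected on this difference, 4 were measured and 0 were called (limma), beside 0.932% of all probe sets. An unadjusted limma p under 0.05 was reached by 0 of the 4, beside 13.8% of all probe sets. The other Gcnt gene measured, Gcnt3, which branches O-glycans in mucous epithelia, had values of 3.61, 3.17 and 3.99 in PD and 3.69 and 3.93 in PD.SHR4, which overlapped (log2 difference 0.22 ± 0.25 SE; 95% confidence interval -0.40 to 0.85). The galactosyltransferases B4galt3 and B4galt4 had log2 differences of -0.14 ± 0.16 and 0.15 ± 0.17 (SE), and the strains overlapped in both.

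Other glycan lists held no called enzyme, where 0.932% of all probe sets were called and 13.8% had an unadjusted limma p under 0.05. For O-GalNAc initiation and core synthesis, 11 of 19 genes were measured, 0 were called (limma; 0 at an unadjusted p under 0.05), and log2 differences ran from -0.16 to 0.17. Its smallest p-values belonged to the initiating enzymes Galnt13 (-0.16 ± 0.13 SE), Galnt4 (0.17 ± 0.16 SE) and Galnt10 (0.11 ± 0.11 SE). For N-glycan branching and trimming, 6 of 16 were measured and 0 called (limma; 0 at an unadjusted p under 0.05), with a median of 0.15. The branching enzyme Mgat4a was dim and uneven in PD, at 1.88, 2.68 and 3.12, against 1.81 and 1.85 in PD.SHR4 (-0.73 ± 0.35 SE), while Mgat5 and Mgat1 measured 0.20 ± 0.12 and 0.27 ± 0.19 (log2 difference, SE). For fucosyltransferases and blood group enzymes, 9 of 15 were measured and 0 called (limma; 1 at an unadjusted p under 0.05), with a median of 0.032. That gene was Fut8, the core fucosyltransferase, which measured 6.38, 6.49 and 6.64 in PD and 5.86 and 5.89 in PD.SHR4 (log2 difference -0.63 ± 0.13 SE; limma, adjusted p = 0.102). Fut7, which makes selectin ligands, measured 0.37 ± 0.20 (log2 difference, SE), and A3galt2, a glycolipid galactosyltransferase, -0.29 ± 0.17.

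Of genes whose proteins read these sugars, Lgals9 was called lower in RNA. In the list of lectins for sialic acid or galactose, which also holds the selectin ligand Selplg, 13 of 20 genes were measured, with a median of 0.034. The limma fit called 1 lower, beside 0.659% of all probe sets, and 0 higher, beside 0.273%, and 12 did not pass. Of the 13, 4 had an unadjusted limma p under 0.05, beside 13.8% of all probe sets. The strains did not overlap in 6 of the 13, beside 31.9%. Lgals9, the gene of galectin-9, a lectin of beta-galactosides made by immune and other cells, measured 8.45, 8.42 and 8.79 in PD and 7.13 and 7.31 in PD.SHR4. That is a log2 difference of -1.33 ± 0.16 (SE), or 2.52-fold lower (limma, adjusted p = 0.0392), and the strains did not overlap. The call was lost when any 1 array was left out, with log2 differences from -1.42 to -1.21. Over the alternatives the adjusted p (limma or, without shrinkage, the ordinary linear model) ran from 0.00485 to 0.312. A few further genes of this list were chosen after their values were seen. Lgals3 had a log2 difference of -0.41 ± 0.11 (SE), Lgals8 0.53 ± 0.12 and Selplg, a selectin ligand of leukocytes, -0.71 ± 0.18, none past the test. The hepatocyte asialoglycoprotein receptor subunits Asgr1 and Asgr2, which clear desialylated plasma proteins, measured -0.16 ± 0.11 and 0.081 ± 0.12 (log2 difference, SE). Without the members, 75 genes of these lists were measured and 1 was called, beside 0.932% of all probe sets, and the strains did not overlap in 27 of the 75, beside 31.9% of all probe sets.

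**Figure D3:**
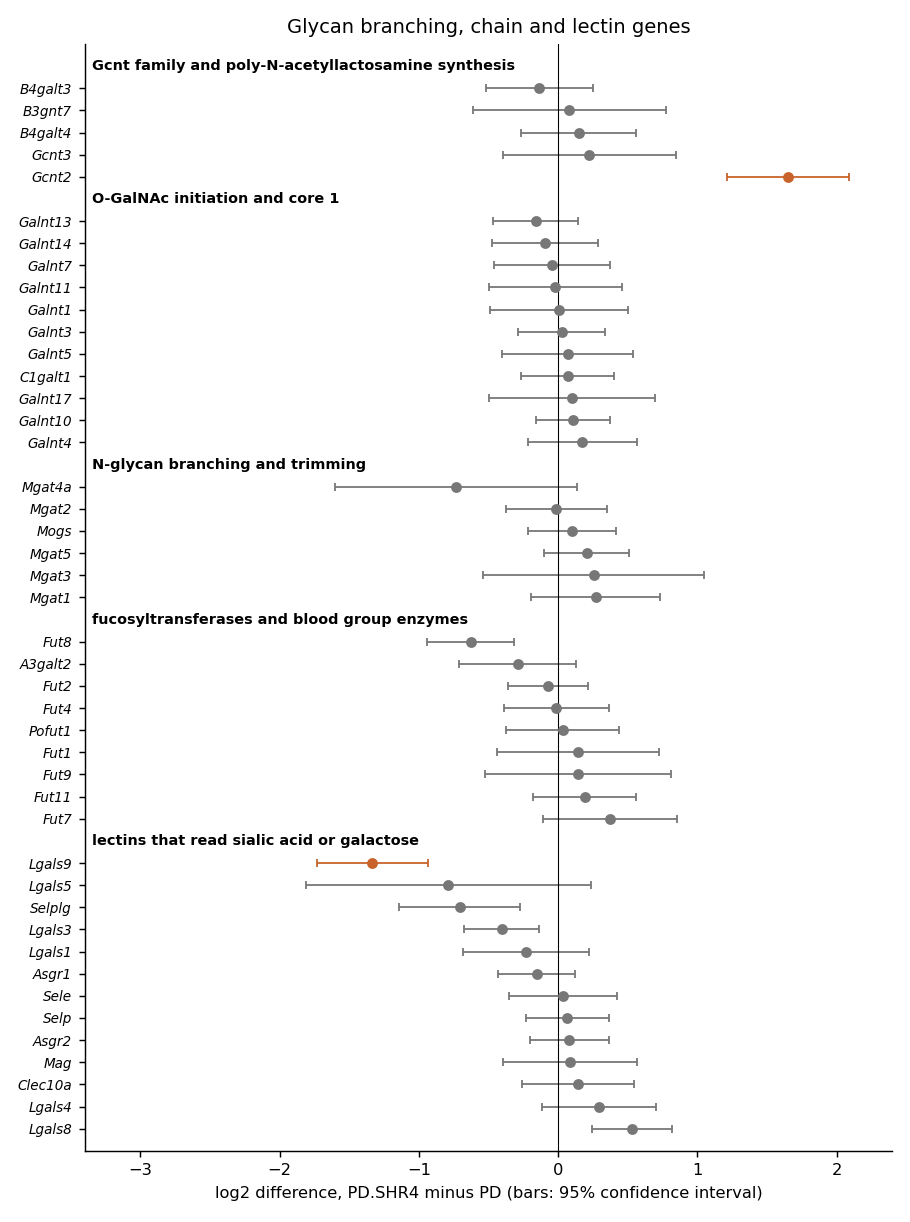
Log2 difference, PD.SHR4 minus PD (horizontal axis), with its 95% confidence interval from the limma fit, for measured genes of the Gcnt, O-glycan, N-glycan, fucose and lectin lists; orange marks genes past an adjusted p of 0.05. Gcnt2, chosen for this difference, lies at 1.65 and Lgals9 at -1.33.

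St8sia1 and St3gal5 both lie on chromosome 4, from which the congenic segment comes. Gcnt2 lies on chromosome 17, St6gal1 on 11 and St3gal1 on 7. In gene order St8sia1 was 469th and St3gal5 226th of 479 measured genes on chromosome 4, and 433 measured genes separated St8sia1 from Cd36. The sources used here do not state the ends of the SHR segment, so whether it holds St8sia1 was not tested. Of the 10 measured genes on each side of St8sia1, 0 were called in the limma fit, beside 0.932% of all probe sets. Of these 20, 6 had an unadjusted limma p under 0.05, beside 13.8% of all probe sets. Their log2 differences ran from -0.54 to 1.31, with 15 above 0. The neighbour just before it in gene order was Cmas, the CMP-sialic acid enzyme described above, with a log2 difference of 0.43, and the one just after it was Sox5, a transcription factor (0.21 ± 0.19 SE). The strains did not overlap in 8 of these 20 neighbours, beside 31.9% of all probe sets. Around Gcnt2, 0 of 20 neighbours were called (limma) and 1 had an unadjusted p under 0.05, beside the same 0.932% and 13.8%. Log2 differences ran from -0.39 to 0.21, and the strains did not overlap in 2 of these 20 neighbours, beside the same 31.9%. Its immediate neighbours were the kinase Mak (0.14 ± 0.13 SE) and the growth factor Bmp6 (-0.14 ± 0.12 SE).

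**Figure D4:**
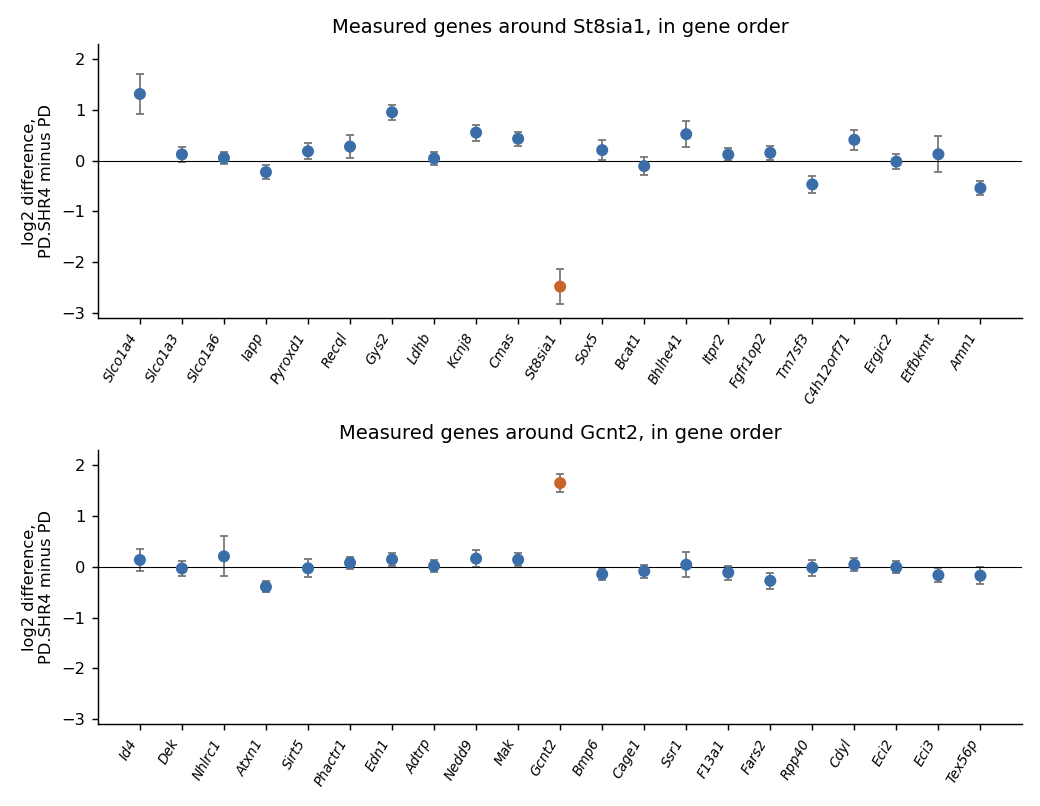
Log2 difference, PD.SHR4 minus PD, with its SE (vertical axes), of the 10 measured genes on each side of St8sia1 (upper panel) and Gcnt2 (lower panel), in gene order and not to distance. The members (orange) lie at -2.48 and 1.65, and the neighbours (blue) between -0.54 and 1.31 and between -0.39 and 0.21.

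Genes with the most similar profile were found by the root mean square distance between log2 values, each centred on the gene's mean over the 5 arrays. These arrays share the split between 2 strains, so the likeness is a description. For St8sia1 they were Aldh1b1, a mitochondrial aldehyde dehydrogenase (distance 0.29; r = 0.979), Insig1, which holds SREBP factors back when sterols are plentiful (0.30; r = 0.989), the phosphate transporter Slc34a2 (0.30; r = 0.985), the acid phosphatase Acp3 (0.31; r = 0.970) and the taurine transporter Slc6a6 (0.33; r = 0.973). Insig1 and Slc6a6 lie on chromosome 4, as St8sia1 does, and Aldh1b1, Slc34a2 and Acp3 on chromosomes 5, 14 and 8. Whether the SHR segment holds Insig1 or Slc6a6 was not tested. In all 5, as in St8sia1, PD array 1 was the lowest of the PD arrays, but the genes were picked for likeness over these same arrays. PD array 1 also had the lowest median over all probe sets of the PD arrays (5.21, against 5.38 and 5.26). For Gcnt2 they were Ephx2, the soluble epoxide hydrolase (distance 0.13; r = 0.994), the peroxisomal transporter Abcd2 (0.18; r = 0.988), the cytochrome P450 reductase Por (0.19; r = 0.981), the retinal dehydrogenase Aldh1a1 (0.22; r = 0.970) and the epoxygenase Cyp2j4 (0.22; r = 0.968). Distances are on the log2 scale.

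**Figure D5:**
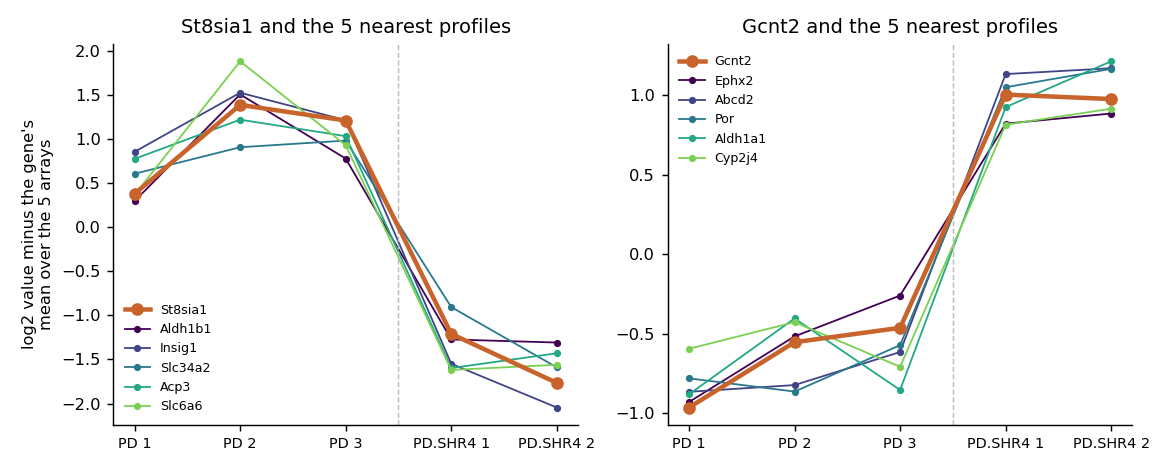
Log2 value minus the gene's mean over the 5 arrays (vertical axes) on each array for St8sia1 (left) and Gcnt2 (right), in orange, with the 5 genes of smallest root mean square distance. The lines step at the strain boundary (dashed), and in the left panel each line is lowest within PD on array 1.

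Markers of cell types were read beside these results. The limma fit called 0.932% of all 8797 probe sets, so 0 calls in lists of this size say little. Over all probe sets, 4397 log2 differences were below 0 and 4400 above. All 8 measured hepatocyte markers were bright, with a mean level of 12.7 to 12.8 in PD and 12.8 in both PD.SHR4 arrays, and 0 of them were called (limma). The log2 difference of Alb was 0.058 ± 0.11 (SE) and that of Ttr 0.042 ± 0.11. Kupffer cell and macrophage markers were measured for 6 of 12 genes, all with log2 differences below 0 (median -0.51) and 0 called, and their mean level ran from 9.06 to 9.26 in PD and 8.66 to 8.68 in PD.SHR4. Of these, Clec4f measured -0.079 ± 0.13 (log2 difference, SE) and Adgre1 -0.71 ± 0.16. T and NK cell markers were measured for 8 of 11 genes, 6 of them below 0 (median -0.49) and 0 called, with mean levels of 4.67 to 4.93 in PD and 4.13 to 4.15 in PD.SHR4. Of these, Cd3d measured -0.44 ± 0.12 (log2 difference, SE) and Gzmb -2.01 ± 0.42, the lowest of the list. Cd2 and Cd4, named for their direction, lay above 0, at 0.20 ± 0.15 and 0.063 ± 0.12. The PD.SHR4 mean of Cd3d, 2.72, was below the lower quartile of every array, which ran from 2.84 to 2.93. Stellate cell and fibroblast markers were measured for 6 of 8 genes, 3 of them below 0 (median -0.050) and 0 called, with mean levels of 6.67 to 7.07 in PD and 6.61 to 6.65 in PD.SHR4. Log2 differences in this list ran from -0.75 ± 0.32 (SE) for Lrat to 0.17 ± 0.23 for Des. For cholangiocytes, Krt19 and Epcam were measured, and their mean level ran from 5.44 to 5.90 in PD and 5.79 to 5.85 in PD.SHR4. Krt19 had a log2 difference of 0.50 ± 0.18 (SE), without overlap between the strains, and Epcam one of -0.23 ± 0.22, and 0 were called. Of the B cell and plasma cell list Cd79b alone was measured, at -0.11 ± 0.12 (log2 difference, SE), 3 of 6 neuron and Schwann cell markers had a median of -0.053, and 0 of 8 endothelial markers were measured. RMA values carry no zero, so no marker can be called absent. The part of these cell types in the values of St8sia1, Gcnt2 and Lgals9 was not tested.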

How the data were processed

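Liver RNA of 2 rat strains was measured on 5 arrays. The authors deposited log2 expression values made with RMA in Expression Console, core-gene level, per the labels; RMA and Partek are the tools listed in the submitters' processing notes. RMA corrects background by a model, normalises by quantiles and summarises each probe set. The sources used here do not state versions or the annotation release, and there are no detection calls. Of 8797 probe sets, 7603 had 1 gene symbol, 409 several and 785 none. Of the 7603, 7584 matched the RefSeq gene table (GRCr8), used for symbols, gene order and promoter windows. The brightest probe set stood for a gene, and each measured member had 1.

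The strain contrast, PD.SHR4 minus PD, was fitted across all probe sets by limma (version 3.58.1, R 4.3.3; lmFit and eBayes, no covariate). Two-sided p-values were adjusted by Benjamini-Hochberg on the whole table, with a threshold of 0.05, and the fit was tested on simulated data. The number of arrays limits the precision. Members and lists were chosen with earlier results of these data known. Named genes were the members, called genes of each list or otherwise the 3 smallest p-values, the 5 most similar profiles, the immediate neighbours and defining markers. Others are marked in the text, except Ugcg, St8sia3, the Gcnt relatives, Asgr1 and Asgr2, named for their role. Alternatives are listed in the closing section.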

Additional observations from a re-analysis of the deposited data

How the results depend on the processing

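The 12 alternative fits left out each of 5 arrays in turn, weighted the arrays, centred them on their medians, quantile-normalised them again, blocked on the replicate number, dropped the dimmest 25% of probe sets, or changed the variance model (ordinary variances, or a robust trend on intensity). In all of them St8sia1 stayed lower (log2 difference -2.79 to -2.20 with 1 array left out) and Gcnt2 higher (1.4999 to 1.75). Their non-overlapping arrays fix these directions in the fits that keep the deposited values. Neither St8sia1 nor Gcnt2 passed without variance shrinkage (-2.48 and 1.65). St3gal5, St6gal1 and St3gal1 kept their direction and did not pass. The count over all probe sets was 82 and became 0 to 55 with 1 array left out, 2 without shrinkage, 149 without the dimmest 25%, 151 with an intensity trend and robust shrinkage, and 819 with array weights. It was 100 after median centring (59 lower, 41 higher), 112 after quantile normalisation (65 and 47) and 82 with a limit of 1.5-fold, against 58 lower and 24 higher at first. Without shrinkage, 0 genes were called in the sialyltransferase, Gcnt and lectin lists, and with 1 array left out 0 to 1, 0 to 1 and 0. With array weights there were 3 calls in glycosphingolipid synthesis, 1 each in breakdown, sialic acid supply and fucosyltransferases, and 4 in the lectin list. The same fit called 4 neighbours of St8sia1 and 1 of Gcnt2. Of the neighbours of St8sia1, 1, Gys2, was called without the dimmest 25%, with trend and robust shrinkage and with the block. With 25 genes on each side of Gcnt2, 1 neighbour was called. By Pearson r, 0 of the 5 most similar genes were shared with those by distance, for St8sia1 and for Gcnt2. Each measured member had 1 probe set, so no other probe set could be tried. The cause of these changes was not tested, except that leaving out an array leaves fewer samples.

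The strains share replicate numbers 1 and 2. Deviations from the strain means correlated at 0.050 for number 1 and 0.082 for number 2. The deviations of the 2 PD.SHR4 arrays mirror each other, so these values cannot show whether arrays of a number share a day or batch. With the replicate number as a block, where PD array 3 has a level of its own and adds nothing to the difference, 163 probe sets were called, 1 neighbour of St8sia1 among them, and the log2 differences of St8sia1 and Gcnt2 were -2.37 and 1.75. The values carry no detection calls, so how far dim probe sets such as that of Mgat4a lie above background is unknown.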

Other observations

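Some neighbours of the members shifted by more than the rest, and of those described here Gys2 and Slco1a4 did not pass the test. Before St8sia1 in the order of measured genes lay Gys2, the liver glycogen synthase. It measured 8.96, 9.02 and 9.21 in PD and 9.87 and 10.2 in PD.SHR4, without overlap (log2 difference 0.96 ± 0.15 SE). At the edge of the neighbourhood lay Slco1a4, an organic anion transporter of the sinusoidal membrane, at 8.60, 9.55 and 8.17 in PD and 10.2 and 9.98 in PD.SHR4 (1.31 ± 0.40 SE), with PD array 2 well above the other PD arrays. Within 25 measured genes of Gcnt2 on chromosome 17 lay Nfil3, the repressor of D-box genes, with the lowest log2 difference of that stretch, -1.54, and it was the 1 gene called there. These genes were chosen after their values were seen.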
